A study of Homo sapiens and Mus musculus with 29 samples.

Results

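The 42 genes described here are the glycolytic enzymes, glucose and lactate carriers and hypoxia response genes, chosen by gene symbol from the 58674 gene IDs listed for HPAF-II (second copies of pseudoautosomal genes left out), of which 58205 could be paired with a symbol. No measured value entered the rule. They fall into 6 roles, which are oxygen sensing (6 genes), targets of the hypoxia-inducible factors, called HIF targets here (12), collagen modification (3), glucose and lactate transport (3), glycolytic enzymes (15) and glycolytic switches (3). All 42 were found in the table, and 40 had a mean of at least 1 RPKM (reads scaled by the length of the gene in kilobases and by the total reads of the library) and were tested. BNIP3, a mitophagy receptor, ranged from 0.551 to 1.29 RPKM and was not tested. Its 44 pseudogenes summed to 1.93 to 6.22 RPKM, between 228% and 824% of its own value, so its reads may be split among them. SLC2A3, a high-affinity glucose carrier, was not tested either, and was at 4.74 RPKM in FOXA1-OE tumor 1, 2.26 RPKM in the tumor labeled FOXA1-OE 3 and below 1 RPKM in every other library. All 42 mouse orthologs were in the KPC table, where 37 passed the same filter.

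The human samples were 21 bulk RNA-seq libraries of HPAF-II, an established human pancreatic ductal adenocarcinoma line of the classical subtype, grown in the pancreas of 15 NSG mice, which lack functional lymphocytes. Primary tumors were 3 of control cells that carried Cas9 and an empty vector, 3 of cells with Cas9 and a lentiviral FOXA1 vector (FOXA1-OE), 4 labeled HNF4G-KO with the empty vector and 5 labeled HNF4G-KO+FOXA1-OE, of which tumors 2 and 3 came from the same mouse. Metastases were 2 HNF4G-KO samples, both from the peritoneum, and 4 HNF4G-KO+FOXA1-OE samples from 3 mice. Of these 4, metastasis 1 was in the spleen and metastasis 4 in the peritoneum. Metastases 2 and 3 carry the label peri mets in fat and are called fat metastases here. The HNF4G-KO cells were a pool of edited clones. The mouse samples were 4 cultured libraries of a KPC pancreatic tumor line and 4 of the matched liver metastasis line, and nothing in the labels says that libraries of a line came from separate animals, so their spread may be technical.

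The HNF4G transcript was not lower in the tumors labeled HNF4G-KO (5.72 to 8.42 RPKM) than in controls (2.48 to 3.47 RPKM), and since an edit that shifts the reading frame can leave the transcript in place, this level does not check the label. FOXA1 was at 0.519 to 0.932 RPKM in control tumors. It was at 6.32 and 8.18 RPKM in FOXA1-OE tumors 1 and 2 but at 0.763 RPKM in the tumor labeled FOXA1-OE 3, and in the HNF4G-KO+FOXA1-OE mice at 4.65 to 23.1 RPKM in tumors but at 0.535, 17.9, 1.296 and 1.55 RPKM in metastases 1 to 4. Groups are therefore named by their labels throughout. All 10 epithelial markers of HPAF-II were present in every human library, and the markers of host pancreas reached a summed 434 RPKM in control tumor 2 and at most 1.11 RPKM in the metastases. The depth worked out from the steps between low values was 33.1 to 69.4 M reads in human and 30.1 to 44.3 M reads in mouse libraries. Bulk values cannot tell fewer cells of a kind from less RNA per cell.

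When oxygen is scarce, the prolyl hydroxylases EGLN1 and EGLN3 no longer mark HIF1A and EPAS1 for destruction by the VHL ubiquitin ligase. The stabilized proteins pair with ARNT and bind short elements, often with the core ACGTG. This raises the transcription of glucose carriers, most enzymes of glycolysis and genes for pH balance, vessel growth and collagen crosslinking. The HIF1A subunit itself is controlled mainly as a protein, so its mRNA level does not report its activity. Pancreatic ductal adenocarcinoma is known as a poorly perfused tumor that relies on glycolysis.

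The promoters of 7 members are shown because these genes carried the differences described below, GAPDH between primary tumor groups and the other 6 between metastases and tumors. The sequences are from RefSeq (GRCh38.p14) and run from 250 bases before to 50 bases after the start of the RefSeq transcript that the table uses, 5′ to 3′ on the strand of the gene. That start can lie inside the gene coordinates of GENCODE, as it does for GAPDH, ANGPTL4, PLOD2, EGLN3 and PFKFB4. Capitals mark the core ACGTG, the only form searched for, on either strand (read as CACGT on the opposite strand). The palindrome CACGTG counts on both. The windows were chr12:6535014-6535313 (plus strand) for GAPDH, chr9:35673678-35673977 (plus strand) for CA9, chr19:8363905-8364204 (plus strand) for ANGPTL4, chr3:146161135-146161434 (minus strand) for PLOD2, chr14:33951025-33951324 (minus strand) for EGLN3, chr10:6144671-6144970 (plus strand) for PFKFB3 and chr3:48556754-48557053 (minus strand) for PFKFB4.
GAPDH: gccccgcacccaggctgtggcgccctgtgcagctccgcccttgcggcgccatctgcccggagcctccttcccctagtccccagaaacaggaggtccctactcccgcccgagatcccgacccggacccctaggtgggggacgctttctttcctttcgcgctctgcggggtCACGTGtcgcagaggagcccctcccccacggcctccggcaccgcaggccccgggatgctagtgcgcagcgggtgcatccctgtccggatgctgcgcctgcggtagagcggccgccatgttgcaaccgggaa
CA9: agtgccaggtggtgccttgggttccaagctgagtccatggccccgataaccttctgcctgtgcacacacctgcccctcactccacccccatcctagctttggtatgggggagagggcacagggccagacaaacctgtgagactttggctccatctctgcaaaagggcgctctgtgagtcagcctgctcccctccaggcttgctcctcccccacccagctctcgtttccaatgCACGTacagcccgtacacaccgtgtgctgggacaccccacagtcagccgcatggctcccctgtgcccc
ANGPTL4: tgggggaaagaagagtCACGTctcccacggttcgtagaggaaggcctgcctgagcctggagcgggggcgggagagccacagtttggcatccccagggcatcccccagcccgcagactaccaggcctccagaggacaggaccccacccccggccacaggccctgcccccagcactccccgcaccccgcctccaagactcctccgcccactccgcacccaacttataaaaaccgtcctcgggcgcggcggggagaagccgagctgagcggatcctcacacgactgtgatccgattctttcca
PLOD2: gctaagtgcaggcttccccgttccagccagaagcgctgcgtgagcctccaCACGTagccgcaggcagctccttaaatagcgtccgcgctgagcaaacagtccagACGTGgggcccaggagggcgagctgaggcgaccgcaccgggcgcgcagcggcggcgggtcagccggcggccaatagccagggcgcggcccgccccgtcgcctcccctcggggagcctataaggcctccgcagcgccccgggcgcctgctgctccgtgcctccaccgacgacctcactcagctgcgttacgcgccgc
EGLN3: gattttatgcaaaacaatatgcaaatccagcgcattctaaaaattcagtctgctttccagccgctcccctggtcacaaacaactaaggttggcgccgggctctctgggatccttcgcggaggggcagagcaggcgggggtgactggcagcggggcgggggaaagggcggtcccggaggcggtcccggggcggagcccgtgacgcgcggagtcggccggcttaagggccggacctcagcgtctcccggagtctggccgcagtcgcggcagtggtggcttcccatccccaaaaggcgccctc
PFKFB3: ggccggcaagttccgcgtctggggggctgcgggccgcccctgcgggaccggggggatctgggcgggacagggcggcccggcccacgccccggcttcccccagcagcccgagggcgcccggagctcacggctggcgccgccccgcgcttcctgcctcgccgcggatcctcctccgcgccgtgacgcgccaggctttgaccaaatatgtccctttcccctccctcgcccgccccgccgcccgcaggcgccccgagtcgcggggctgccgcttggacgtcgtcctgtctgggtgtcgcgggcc
PFKFB4: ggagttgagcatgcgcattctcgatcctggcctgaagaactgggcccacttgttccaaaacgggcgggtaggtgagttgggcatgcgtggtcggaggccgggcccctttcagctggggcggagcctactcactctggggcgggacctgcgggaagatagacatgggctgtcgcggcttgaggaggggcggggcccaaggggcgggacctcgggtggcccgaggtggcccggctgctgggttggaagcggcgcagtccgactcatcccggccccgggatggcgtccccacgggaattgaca
Of the 37 members with a promoter in the table, 17 (45.9%) held the core, against 21.4% of all 35116 promoters of this length. The core was in 6 of 9 HIF targets, 8 of 15 glycolytic enzymes, 2 of 3 collagen modifying genes, 1 of 5 oxygen sensing genes, 0 of 2 carriers and 0 of 3 switches. Its first base lay at -18 from the start in CA9, at -234 in ANGPTL4, at -200 and -146 in PLOD2 and at -81 in GAPDH, while the windows of EGLN3, PFKFB3 and PFKFB4 did not contain these letters. The variant GCGTG was not counted, and it stands in the PFKFB4 window and, as CACGC, in the PFKFB3 window. NDRG1, VHL, VEGFA, BNIP3L and SLC2A3 had no entry. A match describes the letters only and is not evidence of binding.

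Among the members, GAPDH had the highest mean level over the 21 human samples (495 RPKM), followed by PKM (391 RPKM), ENO1 (252.3 RPKM), TPI1 (210 RPKM), LDHA (186 RPKM) and PGK1 (164 RPKM), all enzymes from the triose phosphates onward. SLC2A1, the main glucose carrier of tumor cells, was at 111 RPKM and the switches PFKFB4 and PDK1 at 3.45 and 2.71 RPKM. The sum of the 15 enzymes ranged from 1178 RPKM in HNF4G-KO+FOXA1-OE metastasis 4 to 3051 RPKM in FOXA1-OE tumor 1.

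**Figure D1:**
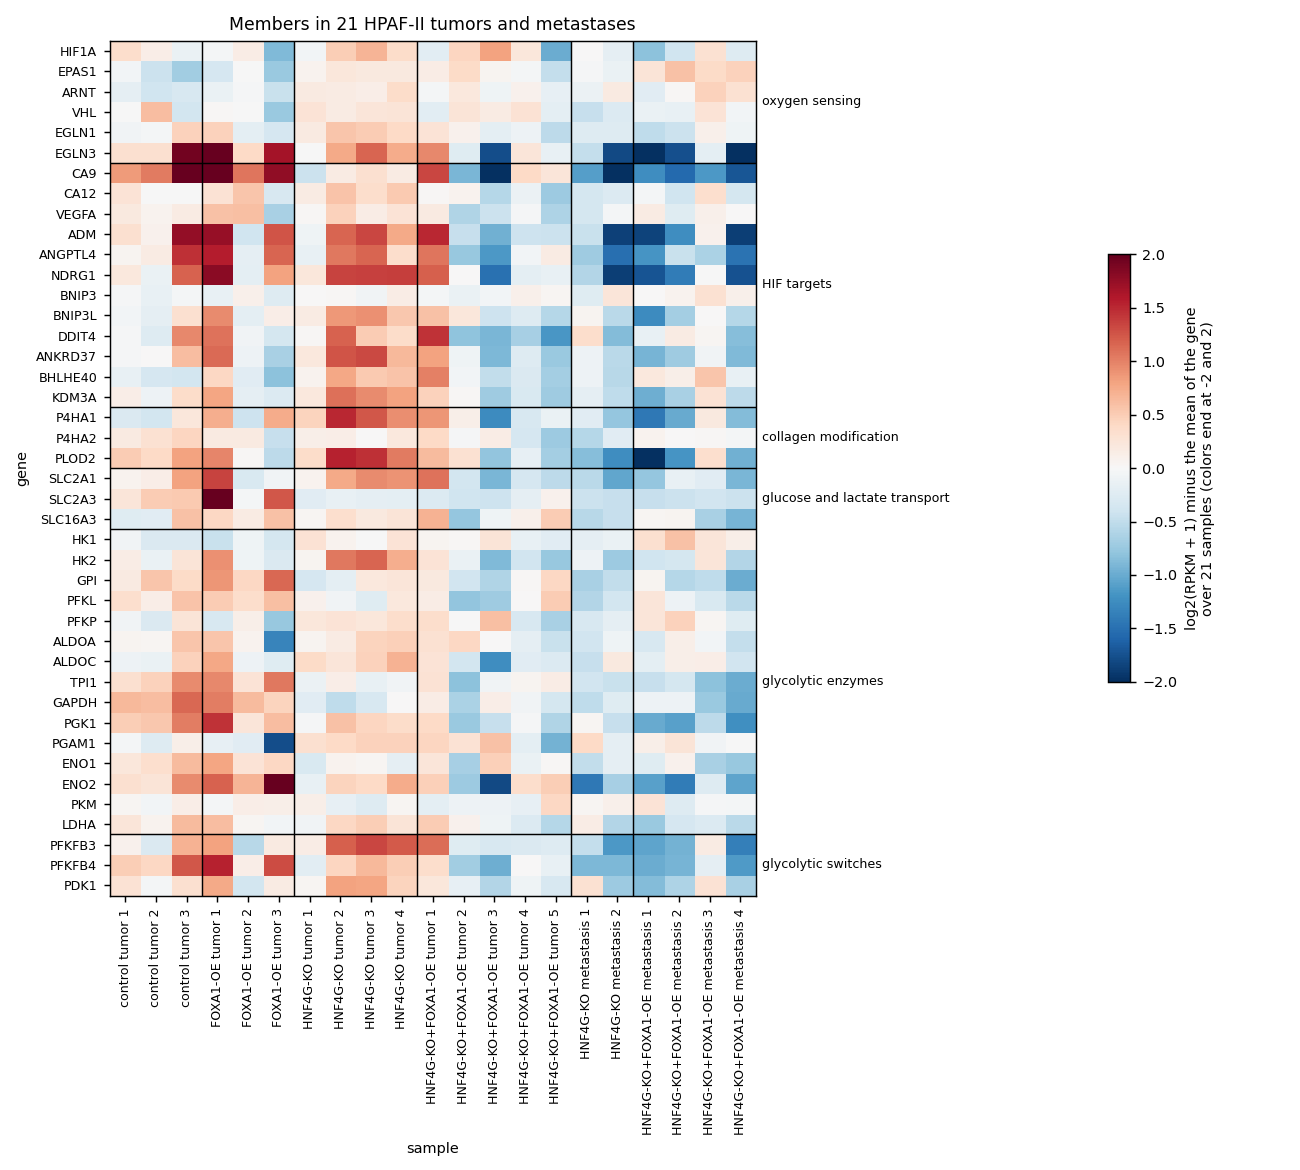
Heat map of the 42 members (rows, ordered by role) in the 21 HPAF-II samples (columns, ordered by group), colored by log2(RPKM + 1) minus the mean of the gene over the 21 samples, with colors ending at -2 and 2. HIF targets and switches are high in control tumor 3, FOXA1-OE tumor 1, HNF4G-KO tumors 2 to 4 and HNF4G-KO+FOXA1-OE tumor 1 and low in most metastases.

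The hypoxia response differed widely between tumors of the same group. In the 3 control tumors, NDRG1, a stress-induced gene of the HIF response, was at 39.6, 31.0 and 78.4 RPKM, and in the 3 FOXA1-OE tumors at 122, 29.8 and 60.3 RPKM. In the 4 HNF4G-KO tumors it was at 40.01, 88.9, 89.4 and 91.2 RPKM, and in the 5 HNF4G-KO+FOXA1-OE tumors at 79.2, 34.5, 11.6, 29.7 and 30.6 RPKM. The tumors highest for NDRG1 were control 3, FOXA1-OE 1, HNF4G-KO 2 to 4 and HNF4G-KO+FOXA1-OE 1, and all 4 groups overlapped. Other members ranked tumors differently. The tumor labeled FOXA1-OE 3 had EGLN3 at 70.0 and CA9 at 30.7 RPKM, above every HNF4G-KO tumor. ADM, the vasodilator peptide adrenomedullin, was at 44.03 RPKM in control tumor 3 against 15.6 and 13.0 RPKM in the others of that group. It was at 36.7 RPKM in HNF4G-KO+FOXA1-OE tumor 1 against 5.82 to 8.95 RPKM in tumors 2 to 5. The same control and HNF4G-KO+FOXA1-OE tumors were high for both genes.

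Over the 14269 genes tested in primary tumors, the SD of log2(RPKM + 1) between mice had a median of 0.17 in control, 0.35 in FOXA1-OE, 0.16 in HNF4G-KO and 0.32 in HNF4G-KO+FOXA1-OE tumors. For the 40 tested members the medians were 0.29, 0.59, 0.27 and 0.49 in the same order. The members above the 90th percentile of all genes numbered 10, 10, 17 and 12 of 40. EGLN3, CA9, ADM, ANGPTL4 and NDRG1 were among them in all 4 groups. The share of reads on mitochondrial genes, in percent, was 5.39 in control tumor 3 against 8.98 and 9.61 in the others of that group. It was 3.53 in FOXA1-OE tumor 1 against 6.64 and 8.39, and 4.18 in HNF4G-KO+FOXA1-OE tumor 1 against 8.86 to 17.2. In HNF4G-KO tumor 1, which was low for the members, it was 7.20, between the 5.73 and 8.27 of the other 3. The part of this share in the values of the members was not tested.

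HNF4G-KO tumors were compared with control tumors to ask how the members stood in cells with the HNF4G-KO label. GAPDH, the enzyme that oxidizes glyceraldehyde-3-phosphate (ENSG00000111640.14, chromosome 12, 6534512 to 6538374 in GRCh38), was at 720, 706 and 1012 RPKM in control tumors and at 391, 323, 368 and 462 RPKM in HNF4G-KO tumors. Every HNF4G-KO tumor was below every control tumor. The log2 fold change was -1.06 (SE 0.219, limma adjusted p = 0.0115), a level 2.09-fold lower on the log2(RPKM + 1) scale. ARNT, the partner subunit of HIF1A and EPAS1, was at 3.28, 2.67 and 2.86 RPKM in control and at 4.48, 4.40, 4.30 and 5.23 RPKM in HNF4G-KO tumors, again with no overlap. It rose by 0.51 on the log2 scale (SE 0.136, limma adjusted p = 0.0297). For each of both genes the two-sided exact permutation p was 0.0571, the smallest that 4 against 3 mice allow. GAPDH and ARNT were the 2 members called of 40, against 12.2% of all genes. A full separation of the tumors was not particular to them. P4HA1, CA9, TPI1, ENO1, EPAS1, HK1, PGAM1 and BHLHE40 did not overlap either, without a call. The share of all genes without overlap was not counted in this comparison. The median log2 fold change was 0.27 for members and 0.01 for all genes.

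No other member passed the test in this comparison, in which 2 of 3 collagen modifying genes and 2 of 3 switches had a log2 fold change above 0, with P4HA2 at -0.18 and PFKFB4 at -0.37. P4HA1, a subunit of collagen prolyl 4-hydroxylase, was at 30.3, 28.7 and 43.8 RPKM in control and at 51.1, 108, 89.4 and 72.0 RPKM in HNF4G-KO tumors, with no overlap (log2 fold change 1.17, SE 0.371, limma adjusted p = 0.0539). PFKFB3, which makes the activator of phosphofructokinase, had a log2 fold change of 0.81 (adjusted p = 0.204), and BHLHE40, a transcriptional repressor, of 0.77 (adjusted p = 0.159). CA9, the tumor-associated carbonic anhydrase, was at 15.6, 18.1 and 38.8 RPKM in control and at 5.84, 9.37, 10.6 and 9.33 RPKM in HNF4G-KO tumors, with a log2 fold change of -1.28 (SE 0.547, limma adjusted p = 0.133). TPI1, which interconverts the triose phosphates, was at -0.63 (adjusted p = 0.101). The other 8 genes followed in every comparison did not pass the test, and their log2 fold changes were 0.25 for HIF1A, 0.57 for EPAS1, 0.08 for VEGFA, 0.33 for the carrier SLC2A1, 0.66 for hexokinase HK2, -0.34 for PGK1, -0.04 for LDHA and 0.18 for the lactate exporter SLC16A3. Without control tumor 3, neither GAPDH (adjusted p = 0.0562) nor any other member was called. ARNT was also not called without control tumor 2 or without any 1 of the 4 HNF4G-KO tumors. When only these groups were in the fit, 12 members were called, against 39.7% of all genes in that fit.

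FOXA1-OE tumors were compared with control tumors, and 0 of 40 members were called, as were 0% of all genes (limma, smallest adjusted p of any gene 0.484, with 652 genes at an unadjusted p under 0.05). The largest log2 fold changes were 0.86 for the enolase ENO2, 0.57 for EGLN3 and 0.54 for CA9, and -0.66 for PGAM1, -0.46 for ALDOA and -0.41 for PLOD2. Those of PGAM1 and ALDOA rest on the tumor labeled FOXA1-OE 3, at 4.48 and 14.9 RPKM against 15.01 to 15.6 and 40.5 to 57.0 RPKM in FOXA1-OE tumors 1 and 2. ENO2 was also highest in the tumor labeled FOXA1-OE 3, at 88.1 RPKM against 41.2 and 28.6 RPKM in FOXA1-OE tumors 1 and 2. EGLN3 and CA9 were highest in FOXA1-OE tumor 1, at 102 and 61.4 RPKM. ALDOA, PGAM1, GAPDH and LDHA have pseudogenes that share their sequence, so part of their reads may be counted elsewhere. HIF1A stood at -0.38, EPAS1 at 0.03, VEGFA at 0.04, SLC2A1 at -0.01, HK2 and PGK1 at 0.09, LDHA at -0.11 and SLC16A3 at 0.35. With 3 tumors in each group, no exact p below 0.1 can be reached.

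The tumors with both changes were compared with each of the other 3 groups. GAPDH was at 505, 294, 501, 437 and 358 RPKM in HNF4G-KO+FOXA1-OE tumors and at 930, 711 and 625 RPKM in FOXA1-OE tumors. Its log2 fold change was -0.94 against control (SE 0.219, limma adjusted p = 0.0267) and -0.83 against FOXA1-OE (SE 0.219, limma adjusted p = 0.0333). It was the only member called in either comparison, 1 of 40, against 4.7% of all genes versus control and 7.86% versus FOXA1-OE. Against HNF4G-KO tumors, 0 of 40 members were called and 0.0561% of all genes, and GAPDH differed by 0.12 on the log2 scale. Against control the call was lost without any 1 of the 3 control tumors, without tumor 5 and without the mouse of tumors 2 and 3. Against FOXA1-OE it was lost without FOXA1-OE tumor 1 or 2, without HNF4G-KO+FOXA1-OE tumor 4 or 5 and without the mouse of tumors 2 and 3. There 7 other members were called without FOXA1-OE tumor 2 (9.27% of all genes), 3 members without HNF4G-KO+FOXA1-OE tumor 1 (5.59%), 2 without the tumor labeled FOXA1-OE 3 (7.42%) and GPI alone without HNF4G-KO+FOXA1-OE tumor 5 (10.2%). These comparisons share groups and are not independent of each other.

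Without a call, most members had lower values in the tumors with both changes. The log2 fold change was below 0 for 34 of 40 members against control (median -0.37, all genes -0.06), for 33 against HNF4G-KO (median -0.49, all genes -0.08) and for 31 against FOXA1-OE (median -0.38, all genes -0.03). Against HNF4G-KO tumors the lowest were PLOD2, a collagen lysyl hydroxylase, at -1.22 (adjusted p = 0.196), HK2 at -1.09 (adjusted p = 0.196) and P4HA1 at -1.07 (adjusted p = 0.197), and the other two beside GAPDH that were highest were ENO1 at 0.10 and CA9 at 0.07. HIF1A was at -0.46 there, EPAS1 at -0.21, VEGFA at -0.47, SLC2A1 at -0.77, PGK1 at -0.55, LDHA at -0.36 and SLC16A3 at 0.00. Against FOXA1-OE tumors the lowest were CA9 at -1.74 (adjusted p = 0.0675), EGLN3 at -1.41 (adjusted p = 0.12) and ENO2 at -1.36 (adjusted p = 0.0734), and the highest PGAM1 at 0.65, EPAS1 at 0.33 and VHL at 0.26. There HIF1A was at 0.18, VEGFA at -0.42, SLC2A1 at -0.43, HK2 at -0.52, PGK1 at -0.98, LDHA at -0.29 and SLC16A3 at -0.17. Against control CA9 was at -1.21, PGK1 at -0.89, EPAS1 at 0.36, ARNT at 0.28 and BHLHE40 at 0.23, and HIF1A at -0.20, VEGFA at -0.39, SLC2A1 at -0.44, HK2 at -0.43, LDHA at -0.40 and SLC16A3 at 0.18. HNF4G-KO+FOXA1-OE tumor 1 was an exception to the low values, with SLC2A1 at 210 RPKM against 51.4 to 77.1 RPKM in tumors 2 to 5.

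Whether the effect of FOXA1-OE differed with and without the HNF4G-KO label was tested as an interaction, in which 0 of 40 members and 0.035% of all genes were called (limma). The interaction was below 0 for 33 members, with a median of -0.56 (all genes -0.05). The lowest were P4HA1 at -1.56 (SE 0.525, adjusted p = 0.438), NDRG1 at -1.45 (adjusted p = 0.619) and EGLN3 at -1.22 (adjusted p = 0.707), and the highest GAPDH at 0.23, PGAM1 at 0.18 and ALDOA at 0.14. Core genes were at -0.08 for HIF1A, -0.24 for EPAS1, -0.50 for VEGFA, -0.46 for CA9, -0.76 for SLC2A1, -1.19 for HK2, -0.64 for PGK1, -0.25 for LDHA and -0.35 for SLC16A3.

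To use all primary tumors, the 8 mice with tumors labeled HNF4G-KO, with or without FOXA1-OE, were set against the 6 mice without, a comparison chosen after the values had been seen. GAPDH was 405 ± 59.5 RPKM (SD, n = 8 mice) with and 784 ± 151 RPKM (SD, n = 6) without the label, and the groups did not overlap. Its log2 fold change was -0.95 (SE 0.155, limma adjusted p = 0.00103), and the exact permutation p was 0.000666, the smallest these numbers allow. When the RPKM of its 65 pseudogenes were added, the values still did not overlap, at 308 to 533 RPKM with the label and 638 to 1040 RPKM without. GAPDH was 1 of 40 members with every tumor lower, against 3.08% of all genes, and 0 members had every tumor higher, against 2.39% of all genes.

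In the same comparison 10 of 40 members were called, a share close to the 24.7% of all genes. Lower were 4 further enzymes, TPI1 at -0.69 (adjusted p = 0.0116), PGK1 at -0.66 (0.0421), GPI at -0.59 (0.0224) and ENO1 at -0.48 (0.0204). So were CA9 at -1.51 (0.0138) and PFKFB4, which makes the same activator as PFKFB3, at -0.76 (0.0415). These values are all from limma with Benjamini-Hochberg adjustment. Higher were EPAS1 at 0.45 (adjusted p = 0.0435), ARNT at 0.35 (adjusted p = 0.0197) and the housekeeping hexokinase HK1 at 0.31 (adjusted p = 0.0454). Except for GAPDH, these genes overlapped between the groups. TPI1 ranged from 110 to 238 RPKM in tumors with the label and from 236 to 408 RPKM in those without. CA9 was 10.1 ± 5.65 RPKM (SD, n = 8) with and 30.5 ± 17.6 RPKM (SD, n = 6) without. HIF1A at 0.21, VEGFA at -0.17, SLC2A1 at -0.05, HK2 at 0.07, LDHA at -0.16 and SLC16A3 at 0.00 did not pass the test, nor did PGAM1 at 0.56, BHLHE40 at 0.46 and EGLN3 at -0.80. With 1 mouse left out the count was 4 without control tumor 2 (16% of all genes), 5 without control tumor 3 (16.1% of all genes) and 6 (17.9% to 22% of all genes) without any 1 of HNF4G-KO tumors 1 to 4, FOXA1-OE tumors 1 and 3, HNF4G-KO+FOXA1-OE tumor 4 and the mouse of tumors 2 and 3, and GAPDH was called in every case. By role, 5 of 15 enzymes fell and 1 rose, while 0 of 3 collagen modifying genes and 0 of 2 carriers were called.

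**Figure D2:**
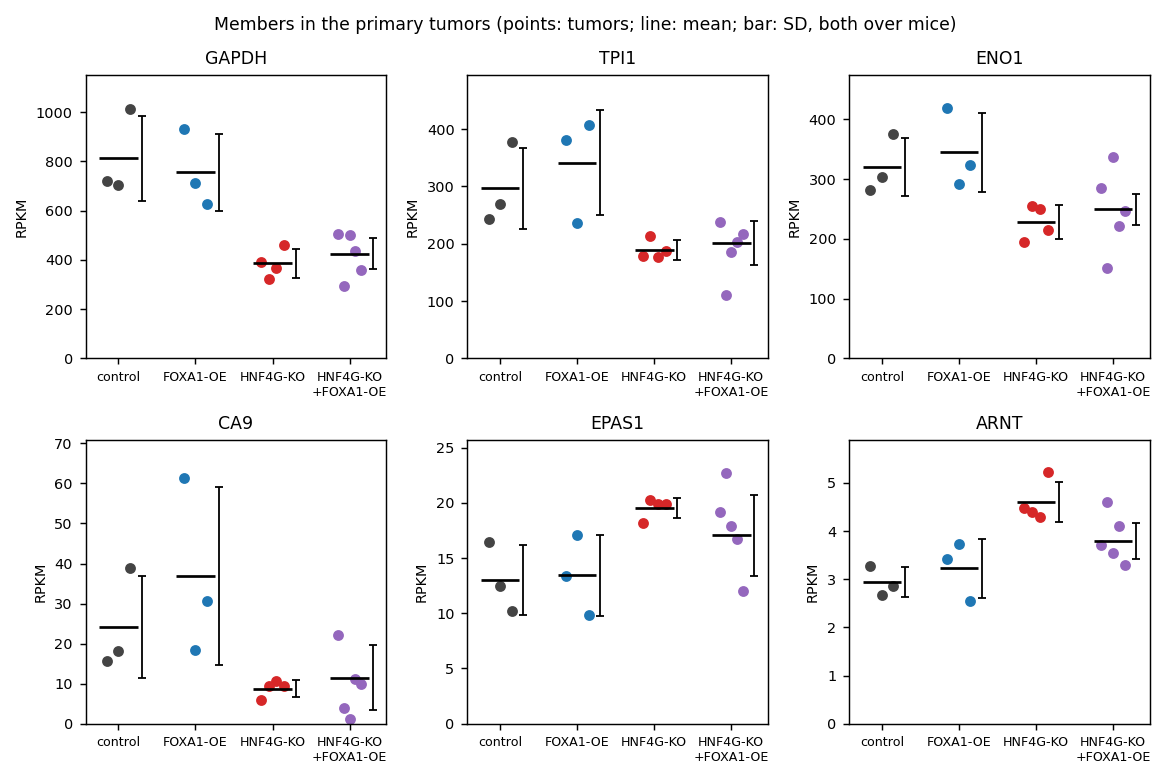
Level in RPKM (linear axis from 0) of selected members in each primary tumor of the 4 groups. Points are tumors, the line is the mean and the bar the SD, both over mice. GAPDH lies between 294 and 505 RPKM with the HNF4G-KO label, with or without FOXA1-OE, and between 625 and 1012 RPKM in the others.

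Of 71 further genes of the same pathways, 8 of 10 other oxygen sensing genes, 23 of 30 other HIF targets, 6 of 12 other isozymes, 4 of 7 genes of gluconeogenesis and 11 of 12 genes of pyruvate entry were tested. With HNF4G-KO averaged in this way, 3 of the 23 HIF targets rose and 1 fell, 1 of the 6 isozymes rose and 1 fell, 1 of the 11 genes of pyruvate entry rose and 1 fell, and none of the rest was called by limma at an adjusted p under 0.05, beside the 24.7% of all genes called there. HKDC1, a hexokinase-like protein, rose by 0.82, and LDHB, the lactate dehydrogenase subunit that favors pyruvate, had a log2 fold change of -1.27. The HIF targets that rose were PPP1R3C at 0.89, WSB1 at 0.83 and RIOK3 at 0.61, and IGFBP3, a binding protein for insulin-like growth factors, was at -1.02. PDK3, a kinase that restrains pyruvate entry, was at -0.38 and SLC16A1, a monocarboxylate carrier, at 0.49. In HNF4G-KO against control, WSB1 at 1.15, RIOK3 at 0.71, HKDC1 at 0.79 and LDHB at -1.32 were called, beside 12.2% of all genes. IGFBP3 was called in tumors with both changes, at -1.45 against control and -1.50 against FOXA1-OE, where HKDC1 at 0.85 and PDK3 at -0.61 were called too, beside the 4.7% and 7.86% of all genes.

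Metastases were compared with primary tumors of the same genotype. Most members had lower values in metastases. By role, the median log2 fold change with both genotypes averaged was -1.06 for collagen modification, -0.92 for the switches, -0.83 for transport, -0.65 for HIF targets, -0.36 for the enzymes and -0.29 for oxygen sensing. NDRG1 (chromosome 8, 133237175 to 133302022) was at 88.9 RPKM in HNF4G-KO tumor 2 and 22.4 RPKM in peritoneal metastasis 1 of the same mouse. In the mouse of HNF4G-KO tumor 4 it was at 91.2 RPKM in the tumor and 8.52 RPKM in peritoneal metastasis 2. In the mouse of HNF4G-KO+FOXA1-OE tumor 1 it was at 79.2 RPKM in the tumor, 9.63 RPKM in the spleen and 12.4 RPKM in fat. In the mouse of HNF4G-KO+FOXA1-OE tumor 4 it was at 29.7 RPKM in the tumor and 9.50 RPKM in the peritoneum. All 5 metastases were thus below the tumor of their own mouse. The sixth, fat metastasis 3, whose mouse has no tumor library here, was at 34.0 RPKM, within the range of the HNF4G-KO+FOXA1-OE tumors.

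EGLN3, the HIF-induced prolyl hydroxylase, went from 36.9 to 15.1 RPKM and from 36.4 to 5.41 RPKM in the HNF4G-KO mice. In the HNF4G-KO+FOXA1-OE mice it went from 42.6 to 3.59 and 5.58 RPKM and from 25.5 to 4.60 RPKM. CA9 went from 9.37 to 3.30 RPKM and from 9.33 to 1.17 RPKM, and then from 22.2 to 2.89 and 2.15 RPKM and from 11.2 to 1.81 RPKM. Both genes were lower in each of the 5 metastases. PLOD2 went from 30.8 to 5.08 RPKM and from 21.5 to 3.64 RPKM, and then from 15.9 to 1.71 and 3.83 RPKM and from 8.72 to 4.60 RPKM. ANGPTL4, a secreted inhibitor of lipoprotein lipase, went from 43.4 to 12.1 RPKM and from 26.1 to 6.50 RPKM, and then from 43.5 to 8.36 and 14.6 RPKM and from 19.6 to 6.67 RPKM. These are the genes whose promoters are printed above. PFKFB3 went from 24.7 to 7.09 RPKM and from 25.2 to 4.07 RPKM, and then from 23.4 to 4.38 and 4.86 RPKM and from 8.17 to 3.35 RPKM. PFKFB4 was at 2.85 to 4.36 RPKM in these 4 tumors and at 0.744 to 1.06 RPKM in the 5 metastases. HNF4G-KO tumors 2 and 4 and HNF4G-KO+FOXA1-OE tumor 1 in these pairs are among the tumors highest for NDRG1 above. A tumor without a paired metastasis, HNF4G-KO+FOXA1-OE tumor 3, was as low as metastases of its genotype. It had EGLN3 at 5.54, CA9 at 1.27, PLOD2 at 5.32 and PFKFB4 at 0.929 RPKM.

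Of the 40 tested members, 28 were lower in all 5 metastases than in the tumor of the same mouse, against 9.58% of all genes. Pseudogenes were not added in these counts. With them, GAPDH, among the 28, was at 338 to 560 RPKM in HNF4G-KO metastases and at 341 to 479 RPKM in HNF4G-KO tumors. Without them it was barely lower in HNF4G-KO metastasis 1, at 322.1 RPKM against 322.7 RPKM in the tumor. The pseudogenes of ALDOA, also among the 28, reached 92.5% of its own value. Whether ALDOA stays lower with them was not tested. EGLN3, CA9, ADM, ANGPTL4, NDRG1, ENO2, PFKFB3 and PFKFB4 were lower by more than 1 on the log2 scale in all 5, which makes 8 of 40 against 0.128% of all genes. The number of members lower was 39 and 39 of 40 in HNF4G-KO metastases 1 and 2, 35 in each of HNF4G-KO+FOXA1-OE metastases 1 and 2 and 30 in metastasis 4, with medians of -0.80, -0.81, -0.77, -0.73 and -0.51. Of all genes, 61.8%, 54.5%, 54.7%, 54.3% and 48.1% were lower in the same metastases. Of the HIF targets, 11 of 11 were lower in each of the first 4 of these metastases, with medians from -1.74 to -1.23, and 9 of 11 in metastasis 4, with a median of -0.31.

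Not every member followed. PKM, the pyruvate kinase, differed from the tumor of the same mouse by -0.06 to 0.47 on the log2 scale and ARNT by -0.29 to 0.22. EPAS1 differed by -0.25 and -0.34 in the HNF4G-KO mice and by 0.11, 0.43 and 0.49 in the HNF4G-KO+FOXA1-OE mice, and HK1 by -0.25, -0.41, 0.27, 0.52 and 0.26. GAPDH differed by -0.95 in HNF4G-KO+FOXA1-OE metastasis 4 and by -0.25 to 0.00 in the other 4. The enzymes as a role had medians from -0.56 to -0.24, nearer to 0 than the switches, whose medians ran from -1.38 to -1.08.

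**Figure D3:**
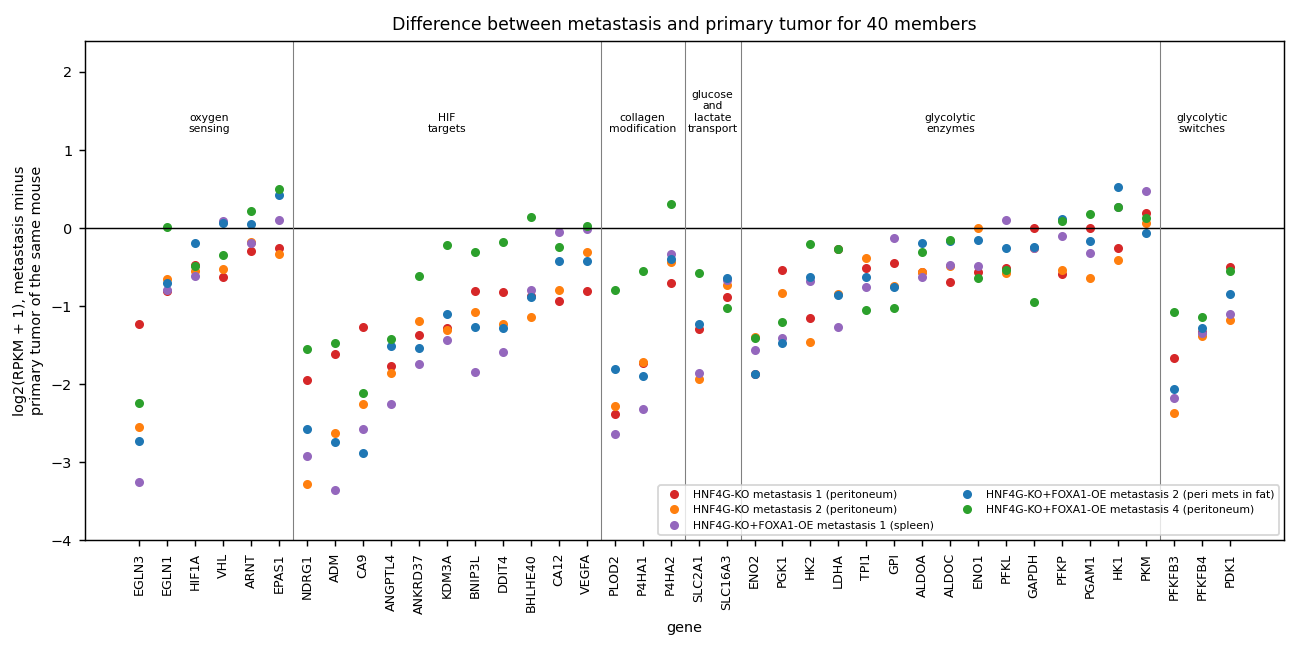
Log2(RPKM + 1) of each of 5 metastases minus that of the tumor of the same mouse (vertical axis) for the 40 tested members (horizontal axis, grouped by role). Points are metastases, and most points of HIF targets and switches lie below 0, while PKM lies between -0.06 and 0.47.

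Without regard to the mouse, limma called 0 of 40 members in HNF4G-KO (0.0426% of all genes), 0 in HNF4G-KO+FOXA1-OE (0.00709% of all genes) and 0 with both genotypes averaged (0.135% of all genes). At an unadjusted p under 0.05 there were 1896, 1356 and 1190 genes of 14099. The log2 fold changes of members had medians of -0.69, -0.30 and -0.45. In HNF4G-KO they were lowest for NDRG1 at -2.32, PLOD2 at -2.14 and ADM at -1.95 (adjusted p = 0.204, 0.157 and 0.268) and highest for PKM at 0.14, GAPDH at -0.11 and ARNT at -0.18. In HNF4G-KO+FOXA1-OE they were lowest for CA9 at -1.55, EGLN3 at -1.42 and NDRG1 at -1.13 (adjusted p = 0.443, 0.475 and 0.513) and highest for EPAS1 at 0.46, HK1 at 0.31 and VEGFA at 0.27. With both genotypes averaged they were lowest for NDRG1 at -1.72 (adjusted p = 0.176), EGLN3 at -1.61 and CA9 at -1.60, and highest for EPAS1 at 0.10, PKM at 0.07 and ARNT at 0.02. The count was 1 without HNF4G-KO metastasis 1 (NDRG1, with 1.59% of all genes called), 1 without HNF4G-KO+FOXA1-OE metastasis 3 (PLOD2, with 0.15%) and 3 without the mouse of HNF4G-KO+FOXA1-OE tumors 2 and 3 (CA9, ANGPTL4 and ENO2, with 0.282%), which also gave 1 call in HNF4G-KO+FOXA1-OE (CA9, with 0.401%). With 2 HNF4G-KO metastases, an exact p below 0.133 cannot be reached. Between the 2 HNF4G-KO metastases and the 4 HNF4G-KO tumors, 30 of 40 members had every metastasis lower, against 21% of all genes, and 0 had every metastasis higher, against 11.9% of all genes.

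For the remaining genes followed in every comparison, the log2 fold changes in mice of the 2 genotypes, HNF4G-KO first, were -0.45 and -0.10 for HIF1A, -1.45 and -0.43 for SLC2A1, -1.16 and 0.10 for HK2, -0.55 and -0.73 for PGK1, -0.49 and -0.37 for LDHA and -0.72 and -0.73 for SLC16A3. VEGFA was at -0.42 and EPAS1 at -0.26 in HNF4G-KO mice, where CA9 was at -1.65. With both averaged, HIF1A was at -0.28, VEGFA at -0.08, SLC2A1 at -0.94, HK2 at -0.53, PGK1 at -0.64, LDHA at -0.43 and SLC16A3 at -0.72. Whether the effect differed between genotypes was tested, and 0 of 40 members were called, as were 0% of all genes (limma, smallest adjusted p of any gene 0.266, with 2267 genes at an unadjusted p under 0.05). The widest differences, with the sign of HNF4G-KO+FOXA1-OE minus HNF4G-KO, were 1.52 for PLOD2 (SE 0.639), 1.26 for HK2 and 1.19 for NDRG1, and -0.39 for TPI1, -0.37 for GAPDH and -0.26 for ENO1. HIF1A was at 0.36, EPAS1 at 0.72, VEGFA at 0.69, CA9 at 0.10, SLC2A1 at 1.02, PGK1 at -0.18, LDHA at 0.12 and SLC16A3 at -0.01.

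Because tumor and metastasis can come from 1 animal, the mouse was also entered as a block. With both genotypes averaged, this fit called 7 of 40 members, all lower in metastases, against 0.546% of all genes called lower (limma, Benjamini-Hochberg). They were NDRG1 at -1.89 (3.71-fold, adjusted p = 0.0379), EGLN3 at -1.76 (3.39-fold, 0.0485), CA9 at -1.73 (3.31-fold, 0.0379), PLOD2 at -1.52 (2.86-fold, 0.0429), ANGPTL4 at -1.46 (2.76-fold, 0.0395), PFKFB3 at -1.43 (2.69-fold, 0.0482) and PFKFB4 at -1.01 (2.02-fold, 0.0455). ENO2 at -1.25 (adjusted p = 0.0574), SLC16A3 at -0.75 (adjusted p = 0.063) and ADM at -1.69 (adjusted p = 0.0797) did not pass. In HNF4G-KO alone the block called PLOD2 (log2 fold change -2.21, 4.62-fold, limma adjusted p = 0.0481), 1 of 40 against 0.34% of all genes called lower.

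These calls are close to the threshold. Leaving out a mouse's tumor or metastases in turn gave 0 to 11 members called, and 0 without HNF4G-KO tumor 2, 3 or 4, HNF4G-KO metastasis 2, HNF4G-KO+FOXA1-OE metastases 1 and 2 together, metastasis 4 or tumor 4. The count was 4 without HNF4G-KO metastasis 1 (0.559% of all genes called lower) and 11 without HNF4G-KO+FOXA1-OE metastasis 3 (0.976%). Without the spleen metastasis it was 7 of 40 (0.439%). Over all mice left out, 0.0785% to 0.994% of all genes were called lower. The median of the members stayed between -0.60 and -0.43 in all of these fits. Host stroma markers, of which 6 to 8 of 11 reached 1 RPKM in these libraries and none was at 0, moved with the difference, at a summed 54.3 and 66.8 RPKM in HNF4G-KO tumors 2 and 4 and 79.6 and 422 RPKM in their metastases. The sum was 55.7 RPKM in HNF4G-KO+FOXA1-OE tumor 1, 115 and 78.5 RPKM in its metastases, 123 RPKM in tumor 4 and 219 RPKM in its metastasis. Fat metastasis 3, which was not low for NDRG1 (34.0 RPKM), had a sum of 220 RPKM. With the level of these markers as a covariate beside the block, 0 members were called (smallest adjusted p of a member 0.198) and the median was -0.43. ENO3, the enolase of muscle, was at 23.4 RPKM in HNF4G-KO metastasis 2 and at 1.65 RPKM in metastasis 1. What it stands for in that sample was not tested. The share of mitochondrial reads also went from 5.73% to 11.6%, from 7.68% to 11.8%, from 4.18% to 9.26% and 9.10% and from 11.5% to 11.9% in the 4 mice, and its part in the result was not tested.

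By site, the fat metastases differed from each other. Fat metastasis 2 had CA9 at 2.15 RPKM, EGLN3 at 5.58 RPKM and PLOD2 at 3.83 RPKM, while fat metastasis 3 had 3.18, 18.6 and 12.8 RPKM. P4HA1 was at 18.1 RPKM in fat metastasis 2 and 42.7 RPKM in fat metastasis 3. It was at 13.2 RPKM in the spleen and at 20.01 to 31.7 RPKM in the 3 metastases labeled peritoneum. The label peri mets in fat does not say that the fat metastases lay apart from the peritoneum. With 1 spleen, 2 fat and 3 peritoneum samples, the part of the site was not tested. Among the other genes of the pathway, 21 of 23 HIF targets had a log2 fold change below 0 with both genotypes averaged and no mouse block (median -0.38), as did 4 of 8 oxygen sensing genes, 1 of 6 isozymes, 2 of 4 genes of gluconeogenesis and 4 of 11 genes of pyruvate entry, and none was called. Of all genes 54.1% were below 0.

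In the cultured KPC lines the orthologs were compared between the liver metastasis and the tumor line, where 0 of 37 were called and 0% of 12585 genes (limma, 109 genes at an unadjusted p under 0.05). Glycolytic enzymes were again among the high genes, with Gapdh at 201 to 387 RPKM, Pkm at 261.3 to 408 RPKM, Aldoa at 222 to 339 RPKM and Ldha at 164 to 295 RPKM. Epas1, Car12, Adm, Eno2 and Slc2a3 were below the filter. The log2 fold changes were between -0.33 for Bnip3, -0.32 for Slc16a3 and -0.21 for Ddit4 at the low end and 0.12 for Pfkfb4, 0.12 for Vhl and 0.08 for Kdm3a at the high end. Hif1a was at -0.10, Vegfa at 0.01, Car9 at 0.04, Slc2a1 at -0.03, Hk2 at -0.01, Pgk1 at -0.10 and Ldha at -0.07.

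The small differences hide libraries that went opposite ways. Angptl4 was at 34.6, 38.4, 13.5 and 14.4 RPKM in tumor line libraries 1 to 4 and at 13.0, 15.4, 37.1 and 27.8 RPKM in liver metastasis line libraries 1 to 4. It was thus lower in the metastasis line in libraries 1 and 2 and higher in 3 and 4. Ddit4, an inhibitor of mTORC1 signaling, was at 18.7, 16.7, 60.2 and 29.8 RPKM in the tumor line and 27.1, 35.1, 31.9 and 10.1 RPKM in the metastasis line. Its order was the reverse of that of Angptl4. Of the 37 orthologs, 28 (75.7%) had opposite signs in libraries 1 and 2 and in libraries 3 and 4, as had 76.9% of all genes. The labels do not say what libraries 1 and 2 share that 3 and 4 do not, so which line a value belongs to rests on the labels alone. When the difference between these pairs was tested, a test chosen after the values were seen, 3 of 37 were called by limma against 20.2% of all genes. They were Angptl4 at 2.45 (adjusted p = 0.000981), P4ha2 at -1.06 (adjusted p = 0.0288) and Egln3 at -0.68 (adjusted p = 0.0358), with the sign of libraries 3 and 4 minus libraries 1 and 2. Libraries 1 and 2 taken alone gave 12 members called against 25.5% of all genes.

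**Figure D4:**
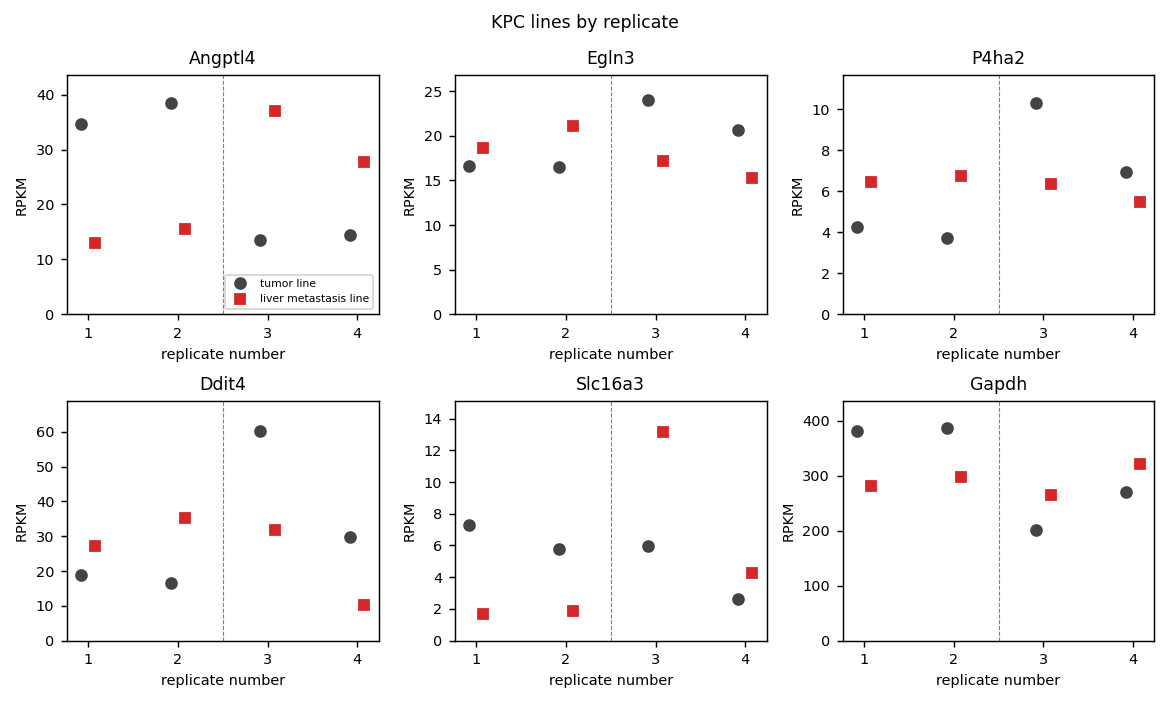
Level in RPKM (linear axis from 0) of selected orthologs in the 8 KPC libraries, with the tumor line and the liver metastasis line side by side for each replicate number. Angptl4 is higher in the tumor line in replicates 1 and 2 and lower in replicates 3 and 4.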

How the data were processed

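RNA-seq of 29 samples was used. The authors aligned the reads and counted them per gene, and deposited RPKM values, 1 table per species; STAR 2.6.1a, featureCounts 2.0.4 and DESeq2 are named in the submitters' processing notes. The notes name GRCh38 and GRCm38, while the methods name GRCh37 for human reads; coordinates here are those of GENCODE on GRCh38 and do not enter the values. In the KPC table, 12 columns that belong to no sample here were not used.

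The log2 of RPKM + 1 was taken, on which scale changes of low genes are understated, and fitted with limma 3.58.1 in R 4.3.3 (lmFit, eBayes with trend). Genes had to reach 1 RPKM on average, which left 14269 for the primary tumors, 14099 for the metastasis fit and 12585 for the KPC lines, with Benjamini-Hochberg adjustment over all of them and a threshold of 0.05. The 4 primary tumor groups entered 1 fit, the tumors and metastases of both HNF4G-KO genotypes another and the KPC lines their own. Where 1 mouse gave several tumors or several metastases, their log2 values were averaged. An exact permutation test over mice (two-sided) was added for single genes. The fits were tested on simulated data. Where a range over tumors is printed, single libraries are meant, while SDs are over mice.

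Of 12 comparisons, 3 were added after the data were seen: HNF4G-KO averaged over both FOXA1 levels, metastasis against tumor in both genotypes, and the difference of that effect between genotypes. The members and lists were chosen with earlier results of these data known. Named were members called, HIF1A, EPAS1, VEGFA, CA9, SLC2A1, HK2, PGK1, LDHA and SLC16A3 in every comparison, and where fewer than 4 members were called the 3 members furthest from 0 on each side; other members were named after their values were seen. The labels tie tumors and metastases to mice. Their deviations from the group means correlated at 0.25, 0.30, 0.27 and -0.03 in the 4 mice, and the consensus correlation used in the block was 0.34. Reads of the mouse host that align to human genes were not separated here. The depth was worked out from the steps between low RPKM values, of which 81.7% to 85.1% (human) and 99.1% to 99.4% (mouse) were whole reads within 0.02. Python 3.11.15, numpy 2.4.6, pandas 2.3.3 and matplotlib 3.10.9 were used for tables and figures.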

Additional observations from a re-analysis of the deposited data

Results flagged for a closer look

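Within groups of 4 mice or 4 libraries, 154 sets of values of single members were checked with Dixon's test for a sample far from the rest, and 13 passed its 95% critical value, where chance gives about 1 in 20. In primary tumors these were EPAS1 in HNF4G-KO tumor 1 (18.2 RPKM, the others 19.9 to 20.2), NDRG1 in HNF4G-KO tumor 1 (40.01 RPKM, the others 88.9 to 91.2) and PFKFB3 in HNF4G-KO tumor 1 (11.5 RPKM, the others 24.7 to 27.3). In the HNF4G-KO+FOXA1-OE group they were ADM in tumor 1 (36.7 RPKM, the other mice 7.25 to 8.95), PFKFB3 in tumor 1 (23.4 RPKM, the others 8.17 to 8.39), PKM in tumor 5 (518 RPKM, the others 339 to 362) and ENO2 in the mouse of tumors 2 and 3 (7.28 RPKM, the others 22.7 to 25.1). In the KPC lines they were Kdm3a (18.6 RPKM, the others 13.3 to 13.8) and Ldha (164 RPKM, the others 267 to 295) in tumor line 3. In liver metastasis line 3 they were Hif1a (37.1 RPKM, the others 27.1 to 28.3), Aldoc (13.7 RPKM, the others 3.22 to 3.63), Ldha (192 RPKM, the others 242 to 251.2) and Pdk1 (10.3 RPKM, the others 5.37 to 5.85).

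The difference between KPC lines was itself different between replicates 3 and 4 and replicates 1 and 2 for Angptl4 (2.45 on the log2 scale), Egln3 (-0.68) and P4ha2 (-1.06) by limma.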

How the results depend on the processing

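The alternatives were a pseudocount of 0.1, no filter on low values, samples shifted to the same median, only the groups compared, samples of the same mouse kept separate, a block, the host stroma level as covariate, and each library or mouse left out. For the 3 comparisons added after the data were seen, all alternatives were chosen then, as were those of the fit with the mouse as block. The counts of members called by limma moved as follows. In HNF4G-KO against control (2), 12 were called with only the groups compared and 5 with host stroma as covariate. In HNF4G-KO+FOXA1-OE, the 1 called against control was 0 with no filter, with only the groups compared and with the tumor number as block. The 1 called against FOXA1-OE was 0 in the same 3 fits and 6 with tumors of the same mouse separate. With HNF4G-KO averaged (10), 6 were called with no filter. In metastases (0), the mouse as block gave 1 in HNF4G-KO and 7 in both genotypes, and that 7 became 0 with host stroma as covariate. In KPC lines (0), replicates 1 and 2 alone gave 12, and Ddit4 turned from -0.21 to 0.77 there. Tumor and KPC replicate numbers mark no shared animal. Over single libraries or mice left out, the counts were 0 to 2 in HNF4G-KO against control, 0 to 1 in HNF4G-KO+FOXA1-OE against control, 0 to 7 against FOXA1-OE, 4 to 12 with HNF4G-KO averaged, 0 to 1 for metastases in HNF4G-KO+FOXA1-OE, 0 to 3 in both genotypes, and 0 to 11 there with the block. They were 0 to 0 for FOXA1-OE against control, for both changes against HNF4G-KO alone, the interaction, metastases in HNF4G-KO, the difference between genotypes and the KPC lines. The cause of these changes was not tested. GAPDH with HNF4G-KO averaged was called in all 20 alternatives (-1.01 to -0.87, adjusted p 0.000669 to 0.00614), and in HNF4G-KO against control in 13 of 14 (-1.16 to -0.90, lost without control tumor 3). Against control and FOXA1-OE, the HNF4G-KO+FOXA1-OE value was called in 6 of 14 each. The 40 members' median was below 0 in all 20 alternatives for metastases in both genotypes (-0.59 to -0.38). Depth was known only through the RPKM steps, so no counting interval was given.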
